A study of Drosophila melanogaster with 69 samples.

Results

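The ovary RNAs that stayed silent in feminized testes came from 46 genes. They were chosen by their TPM, a unit that scales a gene's reads to its length and to the total of the library. A gene had to average at least 30 TPM in *chinmoST* ovaries of days 3, 5, 7 and 11, under 0.5 TPM in WT testes of days 1 and 11, and under 1 TPM in *chinmoST* testes of day 11. Of the 17807 genes in the files, 4612 reached the ovary minimum. Only 83 of these were under 0.5 TPM in WT testes, and 46 of the 83 stayed under 1 TPM in the day 11 *chinmoST* testes. The other 37, which reached 1 TPM there, are used below as a comparison set. The values that chose the genes are given as a description only, and tests were run on libraries the rule did not use.

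RNA was sequenced in bulk from whole testes and ovaries, each library pooling organs of many adults, so that fewer cells of a type and less RNA per cell cannot be told apart. The 18 *chinmoST* testis libraries and 18 *chinmoST* ovary libraries were labelled *chinmoST* and given a genotype of Sod1[X-39] and e[1] over the balancer TM3, which carried Sb[1] and Ser[1]. The 18 WT testis and 15 WT ovary libraries came from Oregon R, a laboratory strain. Each genotype and tissue was sampled at days 1, 3, 5, 7, 9 and 11 of adulthood in 3 libraries, or 2 for WT ovaries of days 1, 7 and 11, and the titles of the day 1 libraries name them day 0. No label says whether replicates came from separate cultures, so p-values measure the spread between these samples.

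As background, the fly egg is built by germ cells and by a sheath of somatic follicle cells. Nurse cells load the oocyte with maternal RNAs that set up the axes and the germ plasm of the embryo. Follicle cells then lay down the vitelline membrane and the chorion in a fixed order at the end of oogenesis, and enzymes crosslink these layers. In *chinmoST* males the transcription factor Chinmo is lost from the cyst stem cell lineage, and the somatic cells of the adult testis gradually take on a follicle-cell-like form.

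The testes carried their defining RNAs. The summed TPM of 7 spermatid markers was between 6254 and 16880 in *chinmoST* testes and between 15660 and 19560 in WT testes, against 0.53 to 6.74 in *chinmoST* ovaries and 0.11 to 241.6 in WT ovaries, where 1 day 1 library stood apart. The summed TPM of 7 follicle cell and feminized soma markers was between 1313 and 1415 in *chinmoST* testes of day 11 and between 398 and 459.2 in WT testes of that day, against 256.6 to 304.2 in *chinmoST* ovaries and 107.5 to 124.8 in WT ovaries of that day, so this list separated *chinmoST* from WT testes but did not mark the ovaries. Library totals were between 32462418 and 181988641 estimated counts. In ovaries, WT day 3 replicate 3, day 5 replicate 3, day 7 replicate 2 and both day 11 replicates had *osk* at 176.0 to 196.2 TPM and *Vml* at 2.93 to 57.9 TPM, under every other WT ovary; no comparison below used them other than for the shared estimate of the spread. Among testes, a library used by the rule stood apart: *chinmoST* testis day 11 replicate 3 carried chorion RNAs such as *Cp19* and *Cp16* far above its replicates, and 9 of the 37 comparison-set genes reached 1 TPM only with it. Without it the rule would have found 54 genes, 45 of them shared with the 46.

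Which ovary programs fell under the limits differed between kinds of gene, as the plot of 13 gene lists shows. The limit of 1 TPM is absolute, so an RNA abundant in ovaries can exceed it at a small share of its ovary level. Of 7 vitelline membrane genes found, 3 were silent (*Vml*, *Vm32E* and *Vm26Ac*), 2 were in the comparison set and 2 were at or over 0.5 TPM already in WT testes. Of 12 chorion genes, 3 were silent (*Cp7Fb*, *Femcoat* and *Muc12Ea*) and 6 were in the comparison set, 4 of those only through *chinmoST* testis day 11 replicate 3. Of 6 eggshell enzyme genes, 3 were silent: *yellow-g*, *yellow-g2* and the peroxidase gene *CG4009*. The prostaglandin synthase-like gene *Pxt* was the only other gene of that list in the group of 83.

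Outside the eggshell lists, the germline and other lists held few silent genes in number. Most of their genes that reached 30 TPM in *chinmoST* ovaries were already at or over 0.5 TPM in WT testes. So were 4529 of all 4612 genes that reached 30 TPM in *chinmoST* ovaries, and 46 of the 4612 were silent. The list counts below were not compared with these shares by a test. Of 20 genes for maternal patterning RNAs and their localization, 16 were at or over 0.5 TPM in WT testes, 2 were silent (*osk* and *pgc*), and 1, *bcd*, was in the comparison set. Of 19 egg activation and maternal cell cycle genes, 14 were in WT testes and 1, *alphaTub67C*, was silent. All 11 germline piRNA genes, all 4 female meiosis genes and all 5 follicle cell transcription factors that reached 30 TPM in *chinmoST* ovaries were at or over 0.5 TPM in WT testes, so none of them could be selected. No yolk gene was among the 46: *Yp1* and *Yp2* were in the comparison set, and *Yp3* and the yolk receptor *yl* were in WT testes. Relative to the ovary these genes were low too. In *chinmoST* testes of day 9, *Yp1* and *Yp2* stood at 0.055% and 0.045% of their *chinmoST* ovary level. The 6 chorion genes of the comparison set stood at 0.0120% to 0.0834%. All 8 lay under the median of the 46, 0.209%, while the median of the 29 distinct comparison-set genes was 0.701%.

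**Figure D1:**
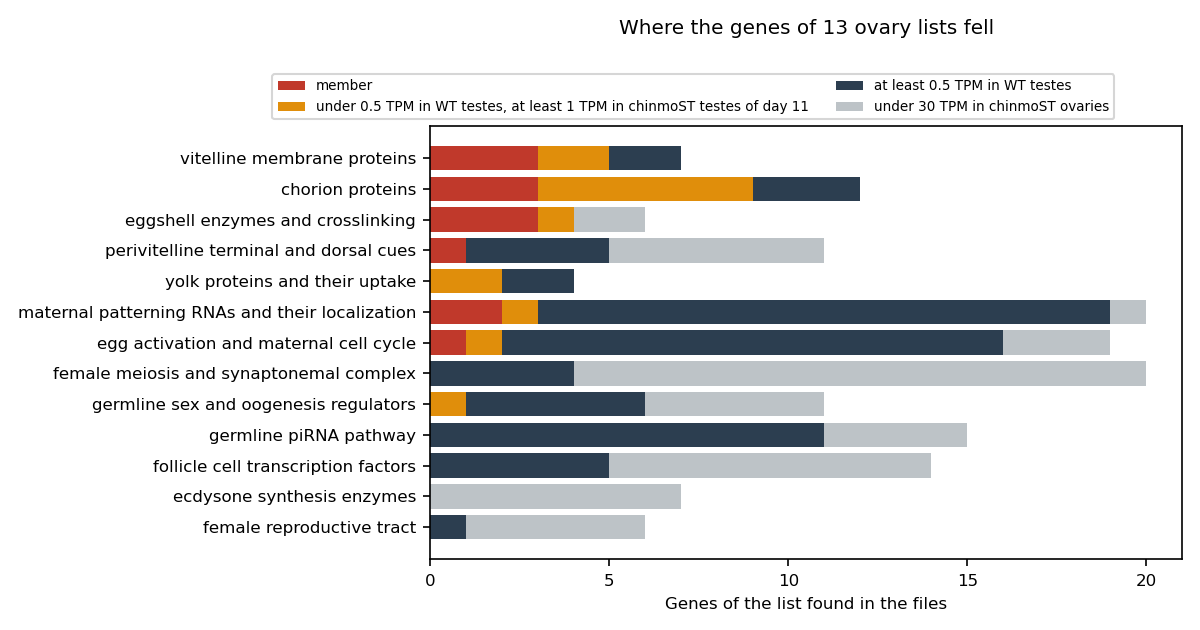
Bars count the genes of 13 ovary gene lists found in the files (x axis) by where the selection placed them. Silent genes (red) lay in the eggshell lists, in the perivitelline list, and as single genes or pairs in the lists of maternal RNAs and egg activation; the piRNA, meiosis and follicle factor lists held none.

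The 46 genes were sorted by known role. Eggshell or follicle cell products are encoded by 11 of them: *Vml*, *Vm32E*, *Vm26Ac*, *Cp7Fb*, *Femcoat*, *Muc12Ea*, *yellow-g*, *yellow-g2*, *CG4009*, *Fcp3C* and *fs(1)M3*. Grouped here as maternal germline are 6: *osk*, *pgc*, *alphaTub67C*, *slam* and 2 copies of the linker histone gene *His1*, whose values were identical in every library and which count as 1 measurement. No value here shows that *His1* is particular to the germline. Its copies lay just under the limit of 1 TPM, at 0.987 TPM in *chinmoST* testes of day 11. Their level is uncertain, as the libraries were selected for poly(A) tails, which histone RNAs of this kind mostly lack. Of the other genes among the 46, 9 encode transporters, enzymes or other named proteins, 18 are known only by a gene number, and 2 are noncoding. Of the 46, 17 (36.96%) lie on the X chromosome, against 13 of the 37 comparison-set genes (35.1%), 18.4% of all genes at or over 30 TPM in *chinmoST* ovaries and 15.02% of all genes placed in the annotation. Some lie close together: *CG13113* and *CG13114* are 935 bases apart on 2L, *yellow-g* and *yellow-g2* are 3780 bases apart on 3L, and *CG5568* and *CG18586* overlap on 3L.

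Of the 46, 16 overlap another annotated gene, 13 of them one on the other strand, and the sources used here do not say whether counting used strand. For *asRNA:CR45601*, which lies antisense to the yolk protein gene *Yp1* on the X chromosome (10054235 to 10055109), reads of the 2 genes therefore cannot be told apart. It had 308.5, 236.3 and 62.9 TPM in *chinmoST* ovaries of day 9, and was listed at 0 in all 3 *chinmoST* ovaries of day 11 and in 11 of the 15 WT ovaries, while *Yp1* was at 114.0 TPM or more in every one of those. Its values are uncertain for that reason. Part of the *osk* locus is also annotated as a noncoding RNA, *lncRNA:osk*, and the division of reads between the 2 entries was not tested.

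**Figure D2:**
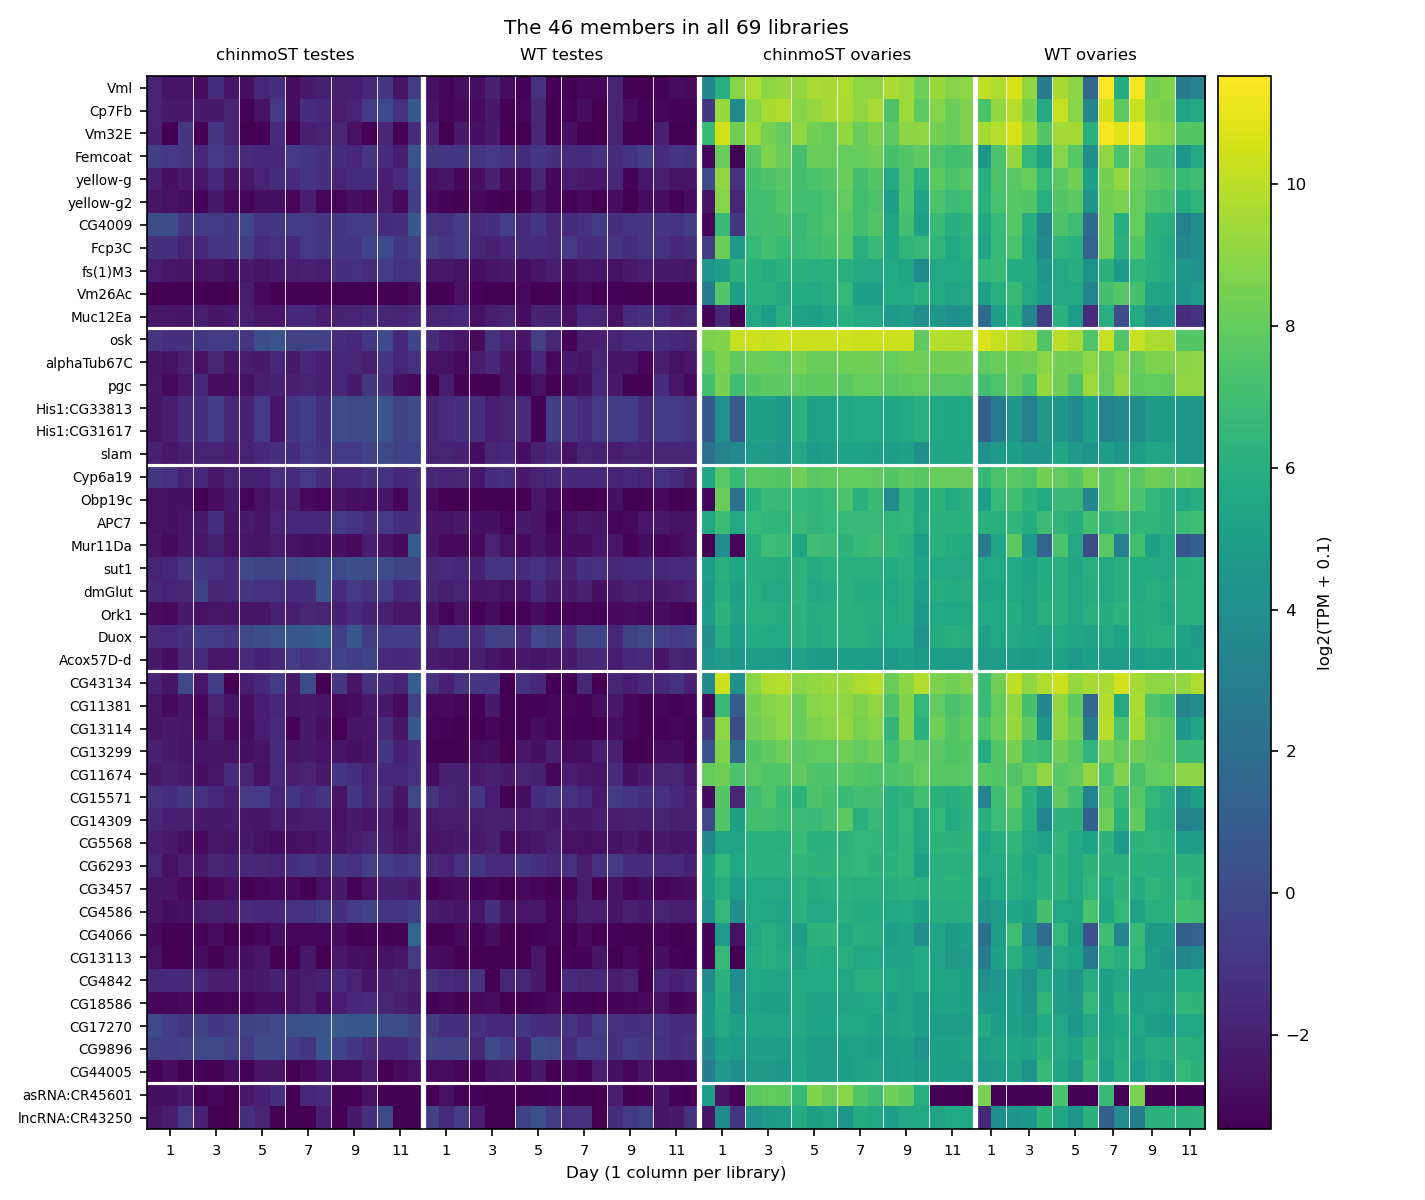
Level of each of the 46 genes (rows, by role: eggshell, maternal germline, other named, gene number only, noncoding) in each of the 69 libraries (columns, by genotype, tissue and day), as log2(TPM + 0.1). Every row is dark over both testis blocks, and most are bright over the ovary blocks. Dark ovary cells include single libraries, day 1, *Muc12Ea* in WT ovaries of day 11, and *asRNA:CR45601* in *chinmoST* ovaries of day 11 and most WT ovaries.

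In testes the 46 genes together were close to absent at every day. Their summed level was between 6.88 and 28.1 TPM in *chinmoST* testes and between 5.47 and 9.40 TPM in WT testes, against 1565 to 10210 TPM in *chinmoST* ovaries and 4514 to 16150 TPM in WT ovaries. In the 18 *chinmoST* testis libraries, 31 of the 46 never reached 1 TPM. In the 18 WT testis libraries, 45 never did, and the exception, *lncRNA:CR43250*, reached 1.16 TPM once. The highest value of any of these genes in a testis was 2.81 TPM, for *CG4066* in *chinmoST* testis day 11 replicate 3. The libraries that chose the genes are among those counted, so low levels there were set by the rule and these values are a description. In testes of day 9, which the rule did not use, the sum was 13.72 to 15.46 TPM in *chinmoST* and 7.35 to 7.73 TPM in WT.

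The 3 genes nearest to each limit of the selection lay on both sides of it without a wide gap. In *chinmoST* ovaries, *Acox57D-d* (30.7 TPM), *CG44005* (32.9 TPM) and *CG9896* (34.3 TPM) lay just inside, and *lncRNA:CR43836* (29.9 TPM), *CG40006* (28.6 TPM) and *CG12716* (28.3 TPM) just outside. In WT testes, *CG9896* (0.482 TPM), *Duox* (0.453 TPM) and *CG4009* (0.422 TPM) lay just inside, and *Nek2* (0.507 TPM), *rt* (0.595 TPM) and *SP1029* (0.677 TPM) just outside. In *chinmoST* testes of day 11, the 2 *His1* copies (0.987 TPM each) and *Cp7Fb* (0.95 TPM) lay just inside, and *bcd* (1.04 TPM), *CG6927* (1.5 TPM) and *CG15721* (1.67 TPM) just outside.

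Day 9 was not used by the selection in either tissue of *chinmoST* flies, so the levels could be examined there in other libraries. All 46 genes were lower in *chinmoST* testes than in *chinmoST* ovaries of day 9, with the log2 fold change nearest to 0 being -4.50, for *CG17270* (edgeR quasi-likelihood test, Benjamini-Hochberg adjusted p under 0.05 and fold change of at least 1.5). Across all 15293 genes tested, 72.3% were called, 46.8% higher and 25.5% lower. All 46 were likewise lower in WT testes than in WT ovaries of day 9, where 80.6% of all genes were called, 51.7% higher and 28.9% lower. The direction had been chosen by the rule on other days, and 11 of the 46 passed the filter on low counts here only through the ovaries, so these counts are a description and support nothing further. The median over the 46 was -8.92 between the *chinmoST* tissues and -9.52 between the WT tissues, against medians over all genes of 0.90 and 1.35, and the 37 comparison-set genes had medians of -5.29 and -7.25. With identical copies counted once, the medians were -8.995 and -9.58 over the 45 distinct silent genes and -7.04 and -8.80 over the 29 distinct comparison-set genes.

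Set against the ovary, the silent genes stood at a median of 0.209% of their *chinmoST* ovary level in *chinmoST* testes of day 9, with a range of 0% to 4.37%, or at 0.192% with the *His1* copies counted once. The comparison set stood at a median of 2.71%, but 9 of its 37 genes are *His4* copies with identical values, and with these counted once the median of its 29 distinct genes was 0.701%. By role, with copies counted once, the medians were 0.109% for the 5 maternal germline genes, 0.160% for the 11 eggshell genes, 0.167% for the 18 genes known by number, and 0.486% for the 9 enzymes, transporters and other named genes. The maternal median was 0.962% with both *His1* copies in it. These medians describe the levels and were not compared by a test.

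**Figure D3:**
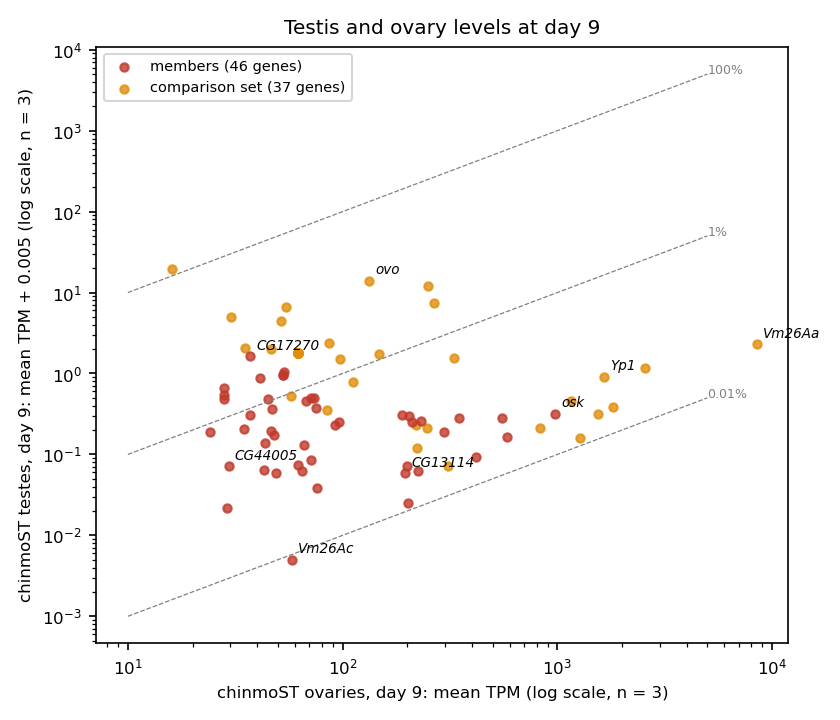
Mean TPM in *chinmoST* testes of day 9 (y axis, with 0.005 added so that 0 can be drawn) against mean TPM in *chinmoST* ovaries of day 9 (x axis), both on log scales, for the 46 silent genes (red) and the 37 comparison-set genes (orange); dashed lines mark 100%, 1% and 0.01% of the ovary level. *Vm26Ac*, with no count in the testes, is lowest, and *CG17270* is at 4.37%.

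Among the eggshell genes, *Vm26Ac*, a vitelline membrane gene on 2L (5958005 to 5958631), was the most completely silent. It had 0, 0 and 0 TPM in *chinmoST* testes of day 9 and 53.3, 51.4 and 69.9 TPM in *chinmoST* ovaries of day 9. No count was assigned to it in the 3 testis libraries together, where 3 counts correspond to 0.0162 CPM, so its level was at least 1293-fold lower there than the 20.9 CPM of the ovaries. *Vm32E*, another vitelline membrane gene, had 0.20, 0.06 and 0 TPM in these testes and 233.0, 498.6 and 527.6 TPM in these ovaries. *Vml*, a vitelline membrane-like gene on the X chromosome, had 0.12, 0.14 and 0.22 TPM in the testes and 787.0, 653.7 and 307.8 TPM in the ovaries (log2 fold change -11.78, SE 1.68, edgeR adjusted p = 2.14e-08).

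Both *yellow* genes of the eggshell were low too. *yellow-g* had 0.17, 0.28 and 0.29 TPM in *chinmoST* testes of day 9, against 50.1, 175.0 and 63.6 TPM in *chinmoST* ovaries of day 9. *yellow-g2* had 0.02, 0.05 and 0.03 TPM in those testes, against 31.3, 159.2 and 38.1 TPM in those ovaries. In the eggshell enzyme list with them, *CG4009*, a predicted peroxidase gene among the 46, averaged 0.493 TPM and *Pxt*, in the comparison set, averaged 7.47 TPM in the same testes.

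Of the maternal RNAs, *osk*, whose product assembles the germ plasm at the posterior of the oocyte, had the highest mean of the 46 in *chinmoST* ovaries of every day, but not in WT ovaries of day 9, where *Vm32E* and *Vml* were higher. It lies on 3R from 8935126 to 8938395. It had 0.27, 0.23 and 0.44 TPM in *chinmoST* testes of day 9 and 1361.2, 1315.0 and 238.1 TPM in *chinmoST* ovaries of day 9, where replicate 3 was low. *pgc*, which keeps the primordial germ cells of the embryo transcriptionally quiet, had 0.22, 0.11 and 0.43 TPM in these testes and 212.1, 238.6 and 247.3 TPM in these ovaries. *alphaTub67C*, the maternal form of alpha-tubulin, had 0.21, 0.20 and 0.15 TPM in these testes and 258.3, 316.3 and 317.7 TPM in these ovaries. Every testis value of these genes was far under every ovary value.

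Low as they were, some of these genes differed between *chinmoST* and WT testes. A filter on low counts kept 35 of the 46, and the other 11, *Vm26Ac* and *Vm32E* among them, did not pass it. A gene could pass through *chinmoST* testes alone, which would favour calls of higher. Which genes passed only in that way was not examined, so the counts called are a description. At days 3 and 5, 8 of the 35 were higher in *chinmoST* testes and 1 was lower, against 12.6% and 16.8% of all 14910 genes tested (29.4% in either direction). The 8 were *osk*, *sut1*, *dmGlut*, *Ork1*, *APC7*, *CG17270*, *CG11381* and *CG13114*. The count in both directions was 5 without replicate 2 and 5 without replicate 3: *APC7*, *CG11381* and *CG13114* lost their calls in both cases, *sut1* without replicate 2, and *osk* and *CG17270* without replicate 3. At days 7 and 9, 13 of the 35 were higher and 1 was lower, against 31.8% and 28.3% of all genes (60.2% in either direction). The share of the 35 called higher was thus near that of all genes at days 7 and 9, and the genes that passed the filter were not all 46.

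Of these, 6 genes were higher at both times: *osk*, *sut1*, *dmGlut*, *Ork1*, *APC7* and *CG17270*. Another 7 were called at days 7 and 9 alone: *fs(1)M3*, *slam*, *Duox*, *Acox57D-d*, *CG4586*, *CG18586* and *Cp7Fb*. By role, 6 of the 8 tested enzyme, transporter and other named genes were higher at days 7 and 9, 2 of the 6 maternal germline genes, 2 of the 9 tested eggshell genes and 3 of the 12 tested genes known by number. In the comparison set, 26 of 36 tested genes were higher at days 7 and 9, against 31.8% of all genes. Of the 26, 9 were the *His4* copies, and with copies counted once it was 18 of 28. The rule chose this set as under 0.5 TPM in WT testes and at least 1 TPM in *chinmoST* testes of day 11. That favours calls of higher on nearby days, so this count is a description only. Markers of several cell types moved with these calls. The summed TPM of 4 early germline markers was between 151.9 and 193.6 in *chinmoST* testes of day 9 and between 31.3 and 48.5 in WT testes of day 9. The summed TPM of the 7 follicle cell and feminized soma markers was between 2256 and 2654 in *chinmoST* testes and between 343.8 and 386.5 in WT testes of that day. Summed levels of 4 muscle markers were between 222.5 and 291.5 TPM in *chinmoST* testes and between 91.95 and 103.2 TPM in WT testes of day 9, of 5 fat body markers between 9.78 and 12.58 TPM and between 5.39 and 6.14 TPM, and of 3 hemocyte markers between 7.07 and 12.77 TPM and between 3.05 and 5.59 TPM. The 4 midgut markers summed to between 0.36 and 51.56 TPM in *chinmoST* testes and between 0.16 and 0.33 TPM in WT testes, and the 7 spermatid markers to between 6966 and 9337 TPM in *chinmoST* testes and between 15660 and 16350 TPM in WT testes. Of these markers only 1, of the midgut list, was at 0 in all 3 WT testes of day 9. At day 9, 5 cyst stem and early cyst cell markers summed to between 80.58 and 111.7 TPM in *chinmoST* testes. In WT testes they summed to between 35.51 and 38.15 TPM. For 8 spermatocyte markers the sums were 384.8 to 479.6 TPM in *chinmoST* and 582.5 to 744.7 TPM in WT testes. Those of 5 accessory gland markers overlapped, at 2.45 to 359.6 TPM in *chinmoST* and 5.76 to 182.6 TPM in WT testes. The part of these cell types in the results was not tested.

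*CG17270*, on 3R, had the highest mean of the 46 in *chinmoST* testes of day 9, though not at the other days. It had 1.20, 1.26 and 1.32 TPM at day 7 and 1.64, 1.60 and 1.63 TPM at day 9 in *chinmoST* testes, against 0.37, 0.23 and 0.54 TPM at day 7 and 0.35, 0.30 and 0.35 TPM at day 9 in WT testes. The groups did not overlap (log2 fold change 1.79, SE 0.23, edgeR adjusted p = 7.44e-08). The difference was already present at days 3 and 5 (log2 fold change 0.95, SE 0.23, edgeR adjusted p = 0.00126). At day 11 it had 1.04, 1.15 and 0.63 TPM in *chinmoST* testes, and these values chose it.

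*sut1*, a sugar transporter gene on 2R, had 0.81, 0.96 and 1.31 TPM at day 7 and 0.90, 1.11 and 1.10 TPM at day 9 in *chinmoST* testes, against 0.16, 0.32 and 0.34 TPM and then 0.23, 0.25 and 0.29 TPM in WT testes. The groups did not overlap (log2 fold change 1.74, SE 0.23, edgeR adjusted p = 1.86e-07). At days 3 and 5 the log2 fold change was 0.74 (SE 0.23, edgeR adjusted p = 0.0106), and the 2 groups overlapped at day 3 but not at day 5. In *chinmoST* ovaries of day 9 it had 55.6, 65.6 and 38.4 TPM, so its mean of 1.04 TPM in *chinmoST* testes of that day was 1.95% of the ovary level.

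*slam*, needed for membrane growth when the embryo forms cells, had 0.28, 0.48 and 0.36 TPM at day 7 and 0.47, 0.53 and 0.63 TPM at day 9 in *chinmoST* testes, against 0.06, 0.19 and 0.15 TPM and then 0.12, 0.17 and 0.16 TPM in WT testes. The groups did not overlap (log2 fold change 1.43, SE 0.29, edgeR adjusted p = 8.92e-05). *fs(1)M3*, also called polehole, acts at the vitelline membrane in terminal patterning of the embryo. It had 0.13, 0.15 and 0.12 TPM at day 7 and 0.30, 0.35 and 0.26 TPM at day 9 in *chinmoST* testes, against 0.05, 0.09 and 0.08 TPM and then 0.06, 0.10 and 0.14 TPM in WT testes. The groups did not overlap within either day (log2 fold change 1.01, SE 0.19, edgeR adjusted p = 4.01e-05).

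*Ork1*, a potassium leak channel gene, had 0.14, 0.20 and 0.17 TPM at day 7 and 0.14, 0.27 and 0.16 TPM at day 9 in *chinmoST* testes, and no WT testis of those days exceeded 0.04 TPM (log2 fold change 2.80, SE 0.45, edgeR adjusted p = 2.93e-06). *APC7*, a subunit of the anaphase-promoting complex, was between 0.21 and 0.48 TPM in *chinmoST* testes and between 0.02 and 0.10 TPM in WT testes of days 7 and 9 (log2 fold change 2.12, SE 0.41, edgeR adjusted p = 4.44e-05). *Duox*, the dual oxidase that makes hydrogen peroxide, had 1.61, 1.62 and 2.20 TPM at day 7 and 0.55, 1.54 and 0.52 TPM at day 9 in *chinmoST* testes, against 0.25, 0.71 and 0.68 TPM and then 0.23, 0.63 and 0.78 TPM in WT testes. Its groups overlapped at day 9, and the call (log2 fold change 1.01, SE 0.30, edgeR adjusted p = 0.00399) was lost without replicate 2.

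*osk* was called higher in *chinmoST* testes at both times although its groups overlapped. At days 3 and 5 it had 0.42, 0.53 and 0.49 TPM and then 0.39, 1.02 and 1.29 TPM in *chinmoST* testes, against 0.03, 0.36 and 0.17 TPM and then 0.07, 0.60 and 0.20 TPM in WT testes (log2 fold change 1.52, SE 0.48, edgeR adjusted p = 0.0118). At days 7 and 9 the log2 fold change was 1.44 (SE 0.50, edgeR adjusted p = 0.0111). Both calls were lost without replicate 3.

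The other 7 tested eggshell genes of the 46 were not called. *Vml* was at 0.04, 0.11 and 0.15 TPM and then 0.12, 0.14 and 0.22 TPM in *chinmoST* testes of days 7 and 9, against 0, 0.02 and 0.02 TPM and then 0.18, 0 and 0 TPM in WT testes (log2 fold change 1.87, SE 0.91, edgeR adjusted p = 0.0665). In the same list, 4 vitelline membrane genes outside the 46 were called higher: *psd*, *Vm34Ca*, *Vm26Aa* and *Vm26Ab*, with log2 fold changes of 3.75, 2.51, 2.04 and 1.33. Of these, *psd* and *Vm26Aa* belong to the comparison set, whose choice favours that direction. Of the 12 chorion genes, *Cp7Fb* (log2 fold change 1.63, SE 0.71, edgeR adjusted p = 0.0413) and *Cp7Fc* (log2 fold change 2.92) were called. The *Cp7Fb* groups overlapped, and its call was lost without replicate 2 and without replicate 3. Among germline piRNA genes, 13 of 15 were higher in *chinmoST* testes of days 7 and 9 and none was lower, where 31.8% and 28.3% of all genes were; the summed early germline markers given above moved with them.

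One gene was lower in *chinmoST* testes at each of the 2 times. *CG6293* had 0.10, 0.17 and 0.15 TPM at day 3 and 0.23, 0.20 and 0.18 TPM at day 5 in *chinmoST* testes, against 0.42, 0.25 and 0.25 TPM and then 0.44, 0.32 and 0.22 TPM in WT testes (log2 fold change -1.07, SE 0.31, edgeR adjusted p = 0.00625), and its call was lost without replicate 1. *CG14309* was between 0.06 and 0.13 TPM in *chinmoST* testes and between 0.10 and 0.15 TPM in WT testes of days 7 and 9 (log2 fold change -0.61, SE 0.20, edgeR adjusted p = 0.00853), and its call was lost without replicate 1 and without replicate 3. WT testis replicate 1 of days 3, 5, 7 and 9 read genes over 4000 nt low, with median log2 deviations of -1.21, -1.45, -1.07 and -0.93 from the median testis library, while *chinmoST* testes were between -0.18 and 0.10 at days 3 and 5 and at 0.45, 0.74 and 0.37 at day 7 and 0.55, 0.74 and 0.83 at day 9. Of the genes called higher at days 7 and 9, *fs(1)M3* (5690 nt), *Duox* (5302 nt), *slam* (4045 nt) and *Ork1* (4012 nt) are over that length. The part of this trend in the differences was not tested. Without replicate 1 the count at days 7 and 9 was 17 higher and 1 lower. That count does not remove the trend: WT testis replicates 2 and 3 were at 0.09 and 0.02 at day 7 and at 0.07 and 0.05 at day 9, under the *chinmoST* testes of those days.

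**Figure D4:**
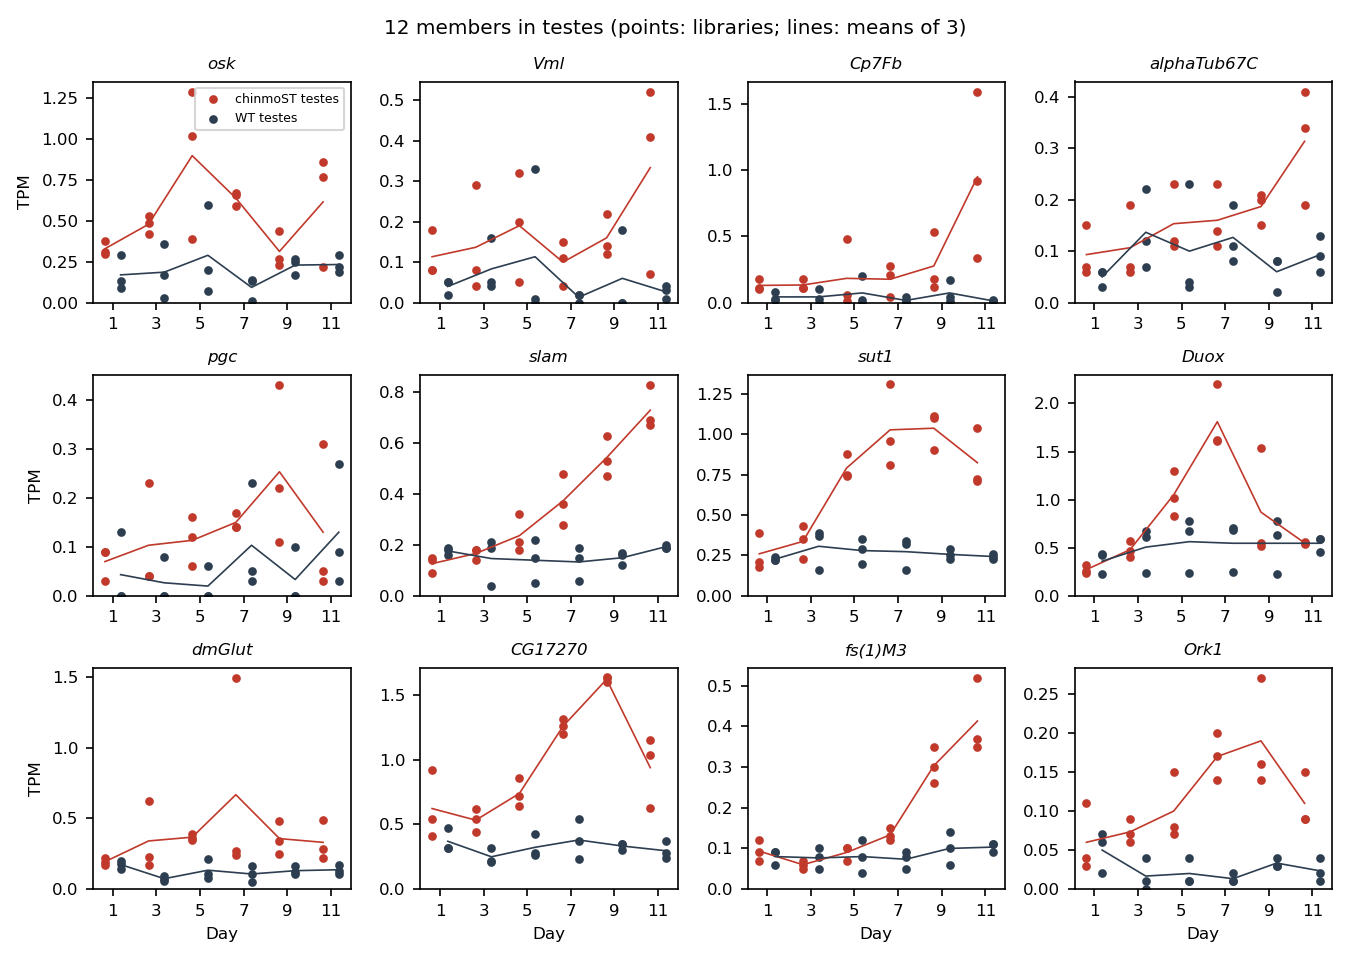
TPM of 12 of the 46 genes in testes by day (x axis), with a point for each library and a line through the mean of 3, *chinmoST* in red and WT in dark blue; each panel has its own axis, starting at 0. *CG17270* and *slam* of *chinmoST* testes lie above every WT testis at days 7 and 9, while *Vml* and *pgc* overlap.

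The *chinmoST* ovaries were also tested against WT ovaries, which cannot show what the genotype does in testes. At day 9, none of the 46 genes was called between *chinmoST* and WT ovaries by edgeR or by DESeq2, and 0.366% of all 11478 genes tested were called by edgeR. At an unadjusted p under 0.05 there were 5, a count without the share of all genes at that limit, so no excess can be read from it. The median log2 fold change over the 46 was -0.26. The spread of single libraries was wide, so the lack of calls does not show equal levels. *Vm32E* was 2.47-fold lower in *chinmoST* ovaries without a call, and the SE of the log2 fold change was 1.24 for *Vml*. *chinmoST* ovary day 9 replicate 3 also read genes over 4000 nt low, with a median log2 deviation of -1.29. *Vml* had 787.0, 653.7 and 307.8 TPM in *chinmoST* ovaries of day 9, against 2545.2, 336.6 and 422.3 TPM in WT ovaries of day 9, and *osk* had 1361.2, 1315.0 and 238.1 TPM in *chinmoST* ovaries, against 1217.8, 819.9 and 802.7 TPM in WT ovaries. *alphaTub67C* varied least of the 3, with 258.3, 316.3 and 317.7 TPM in *chinmoST* ovaries and 273.3, 404.6 and 381.0 TPM in WT ovaries.

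The 46 genes differed in how evenly they were present in the youngest *chinmoST* ovaries. In 24 of them, the lowest of the 3 day 1 libraries was under 10% of the highest, and in 18 it was under 1%. *Femcoat*, an eggshell protein gene, had 0.02, 272.4 and 0 TPM, *yellow-g* had 0.95, 541.7 and 0.34 TPM, *CG4009* had 0.02, 107.3 and 0.44 TPM, and *Cp7Fb* had 0.44, 608.5 and 13.03 TPM in replicates 1, 2 and 3. For these 4 genes replicate 2 was far above the other replicates. Among the 24 were 10 of the 11 eggshell genes, the exception being *fs(1)M3* with 23.2, 30.4 and 77.3 TPM.

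The other 22 genes were within a narrower range in all 3 day 1 libraries. *alphaTub67C* had 215.3, 385.8 and 234.8 TPM, *Acox57D-d*, an acyl-CoA oxidase gene, had 21.2, 28.8 and 22.6 TPM, and *sut1* had 30.1, 68.7 and 42.0 TPM. *osk* ran the other way from the eggshell genes, with 380.3, 413.0 and 1194.8 TPM. In *chinmoST* ovaries of days 3 to 11 only 2 of the 46, *Obp19c* and *asRNA:CR45601*, had a lowest library under 10% of the highest. In WT ovaries of all days 23 did, and *Vml* ranged there between 2.93 and 2932.4 TPM. These include the WT ovaries set apart above, which hold the 2.93 TPM. Those ovaries read genes over 4000 nt low, with median log2 deviations between -2.1 and -1.46. In *chinmoST* ovaries of day 1 these deviations were -2.13, -0.91 and -0.41. The part of such library differences in the spread of these genes was not tested.

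In testes of days 7 and 9, where 31.8% of all genes were called higher, the calls were as follows. Of the 22 genes with the narrower range, 20 passed the filter and 12 were higher in *chinmoST* than in WT testes at days 7 and 9. Of the 24 with the wide range, 15 passed the filter and 1, *Cp7Fb*, was higher. The median log2 fold changes of the tested genes were 1.35 and 0.40, against 0.04 for all genes. This division was made after the values were seen, and a difference between the 2 sets was not tested.

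**Figure D5:**
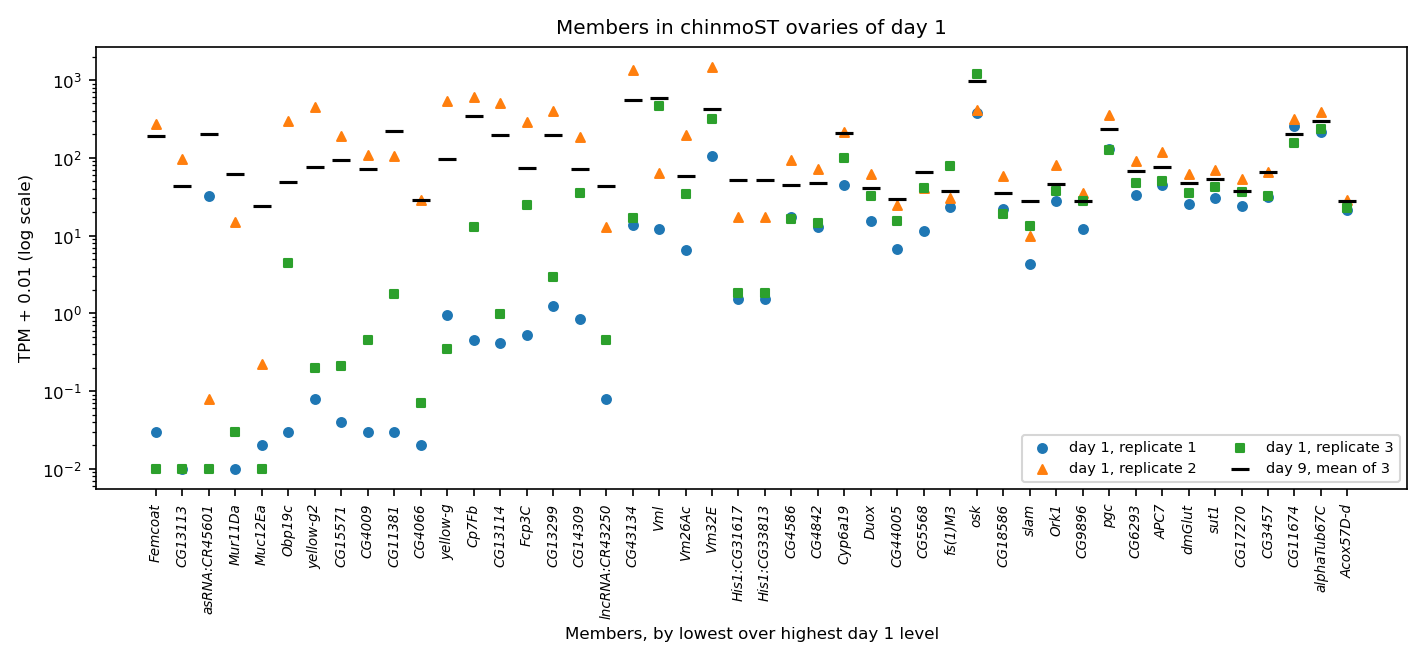
TPM of the 46 genes in the 3 *chinmoST* ovary libraries of day 1 (circle, triangle and square, with 0.01 added, log scale) and their mean in *chinmoST* ovaries of day 9 (black bar), ordered from left by the ratio of the lowest to the highest day 1 library. The 24 genes on the left spread over more than 1 order of magnitude, with replicate 2 highest for most, and those on the right lie close together.

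In *chinmoST* ovaries, 5 of the 46 genes, or 4 of 45 with the *His1* copies counted once, were higher at day 9 than at day 1 and none was lower, against 4.54% and 3.79% of all 11478 genes (8.33% in either direction). *Muc12Ea*, a mucin gene of the chorion list, had 24.7, 32.0 and 15.8 TPM at day 9 and 0.01, 0.21 and 0 TPM at day 1 (log2 fold change 8.10, SE 1.71, edgeR adjusted p = 0.00567). *slam* had 30.7, 36.6 and 16.5 TPM at day 9 and between 4.32 and 13.2 TPM at day 1 (log2 fold change 1.35, SE 0.25, edgeR adjusted p = 0.00293). The 2 *His1* copies had 42.8, 52.6 and 62.3 TPM at day 9 and 1.53, 17.1 and 1.84 TPM at day 1, and *CG5568* had 68.9, 82.4 and 46.2 TPM at day 9 and 11.5, 40.7 and 41.0 TPM at day 1. Groups did not overlap for any of these. The count was 0 without day 1 replicate 1 and 22 without day 1 replicate 2. Over all genes, the number called ranged between 1 and 2361 under the alternatives, so these shifts are not particular to the 46. The *chinmoST* ovaries read genes over 4000 nt unevenly, with median log2 deviations of 0.09, 0.02 and -1.29 at day 9 and of -2.13, -0.91 and -0.41 at day 1. *slam* (4045 nt) and *Muc12Ea* (10180 nt) are that long, and the part of this trend in their differences was not tested.

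In WT ovaries none of the 46 was called between day 9 and day 1 by edgeR, where 10.3% of all genes were called, 1.04% higher and 9.25% lower. At an unadjusted p under 0.05 there were 5, and DESeq2 called 2. The shares of all genes at these settings are not given here, so these counts cannot be set against a background. *Muc12Ea* had 54.5, 18.3 and 23.6 TPM at day 9 and 3.23 and 30.7 TPM at day 1, and *slam* had 31.2, 42.9 and 40.0 TPM at day 9 and 18.4 and 26.5 TPM at day 1. Whether the change with age differed between genotypes was not tested. Leaving out day 1 replicate 2 gave 4 calls among the 46, and leaving out replicate 1 gave 0. Over all genes, the number called ranged between 0 and 2411 under the alternatives. Of the day 1 pair, 1 library held spermatid markers at a summed 241.6 TPM and the other at 1.71 TPM.

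At day 11, the third replicate of *chinmoST* testes held several silent genes together with the chorion RNAs named above; the genes given here were chosen after their values were seen. *CG4066* had 0, 0.01 and 2.81 TPM, *Mur11Da*, a mucin-related gene, had 0.07, 0.03 and 1.90 TPM, *CG13114* had 0.27, 0.07 and 1.60 TPM and *Femcoat* had 0.28, 0.13 and 1.44 TPM in replicates 1, 2 and 3. The maternal genes were not raised with them: *osk* had 0.86, 0.22 and 0.77 TPM, *pgc* 0.31, 0.05 and 0.03 TPM and *alphaTub67C* 0.41, 0.19 and 0.34 TPM. The comparison-set gene *Cp19* had 131 TPM in that library. Day 11 values chose the genes, so they are given as a description.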

How the data were processed

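RNA-seq of *chinmoST* and WT testes and ovaries gave 69 libraries. Libraries were poly(A)-selected, and replication-dependent histone RNAs mostly lack a poly(A) tail. According to the submitters' processing notes, reads passed through FastQC 0.11.9, Trim Galore 0.6.4, RSEM and Bowtie2 with the build dm6. The authors deposited RSEM expected counts, which need not be whole, and TPM for each gene; the deposited FPKM were not used. Use of strand and the annotation version are not given in the sources used here. Gene positions came from an Ensembl annotation that held 17710 of the 17807 identifiers. Library totals were between 32462418 and 181988641 expected counts, so that 3 counts in a library, the floor, corresponded to between 0.0165 and 0.0924 CPM. Floors cover counting error only.

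Expected counts were rounded and tested with the quasi-likelihood test of edgeR 4.0.16 in R 4.3.3, after TMM scaling and its filter on low counts, with a coefficient for each genotype and day (and tissue). The 36 testis libraries, the 33 ovary libraries or all 69 were fitted together. A gene was called at a Benjamini-Hochberg adjusted p under 0.05 over all genes tested and a fold change of at least 1.5, in 7 comparisons. Alternatives were DESeq2 1.42.0, library size alone, no filter, the adjusted p alone, the compared libraries alone, a replicate block, limma 3.58.1 on log2(TPM + 1) and log2(TPM + 0.1), leaving out replicates, and other limits of the selection. The scripts were tested on simulated data. The members, gene lists and marker lists were chosen with earlier results of these data known. Of 158 list entries, 152 were matched, and the others were not analysed here. Genes were named by rule: the 10 members highest in WT ovaries of day 9, the highest members and comparison-set genes of each list, the 5 largest rises and falls of each comparison and the 3 genes on each side of a limit; other genes named were chosen after their values were seen.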

Additional observations from a re-analysis of the deposited data

Results flagged for a closer look

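Among the genes called in testes, 46 groups of 6 libraries were examined for a library far from the rest, and 5 held one, where chance gives about 1 in 20. At days 3 and 5 these were *dmGlut* in WT testis day 5 replicate 2 (0.21 TPM, the next being 0.11 TPM), *Ork1* in *chinmoST* testis day 5 replicate 3 (0.15 TPM, the next being 0.09 TPM) and *CG11381* in WT testis day 3 replicate 2 (0.10 TPM, the next being 0.02 TPM). At days 7 and 9 they were *dmGlut* in *chinmoST* testis day 7 replicate 3 (1.49 TPM, the next being 0.48 TPM) and *Cp7Fb* in WT testis day 9 replicate 1 (0.17 TPM, the next being 0.04 TPM).

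The log2 fold change of *chinmoST* over WT testes was higher at days 7 and 9 than at days 3 and 5 for 6 of the 35 genes tested, by an interaction term added after the data were seen, which called 22.5% of all genes in that direction. The changes in log2 fold change were 2.77 for *CG18586* (edgeR adjusted p = 0.00691), 1.15 for *fs(1)M3* (0.00165), 1.11 for *CG4586* (0.0368), 1.09 for *CG6293* (0.0425), 1.00 for *sut1* (0.0146) and 0.84 for *CG17270* (0.0342). *CG6293* stood at -1.07 at days 3 and 5 and at 0.02 at days 7 and 9, so its difference was the smaller at the later days.

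Some silent genes reached 1 TPM in single *chinmoST* testes of days 1 and 11, which no comparison used, above every WT testis of those days. *CG4009* had 1.10 and 1.07 TPM in day 1 replicates 1 and 2, against at most 0.52 TPM in WT testes. In day 11 replicate 1, both *His1* copies had 1.34 TPM and *sut1* and *CG17270* had 1.04 TPM each, and *CG17270* had 1.15 TPM in replicate 2. In day 11 replicate 3, *CG4066* had 2.81 TPM, *CG43134* 2.06 TPM, *Mur11Da* 1.90 TPM, *CG13114* 1.60 TPM, *Cp7Fb* 1.59 TPM, *CG4009* 1.5 TPM and *Femcoat* 1.44 TPM. Day 11 values were used to choose the genes.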

How the results depend on the processing

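Counts are of the 46 genes called in either direction, both *His1* copies included. In testes, limma on log2(TPM + 1) called 0 at days 3 and 5 and 2 at days 7 and 9, against 9 and 14 by edgeR; this pseudocount lies above most testis values. Leaving out replicates gave 5 to 10 and 12 to 18. In *chinmoST* ovaries, day 9 against day 1 gave 5, but 0 with the compared libraries alone, 9 and 13 with limma on log2(TPM + 1) and log2(TPM + 0.1), 21 without day 1 replicate 2 and day 9 replicate 3 (chosen after seeing the data), and 0 to 22 leaving out 1 library. In WT ovaries the count of 0 became 2 with no filter, with either limma setting and with DESeq2, and 0 to 4 leaving out 1 library. Between ovaries of day 9 it stayed 0 without any 1 library, and between tissues it was 46 in *chinmoST* and 45 to 46 in WT. Calls over all genes moved under the alternatives as well. They ranged between 2661 and 6704 in testes of days 3 and 5 and between 7153 and 10729 at days 7 and 9. Between day 9 and day 1 they ranged between 1 and 2361 in *chinmoST* ovaries and between 0 and 2411 in WT ovaries. Between ovaries of day 9 they ranged between 3 and 217. The cause was not tested. The selection gave 29 genes at an ovary minimum of 60 TPM, 27 with CPM in place of TPM, and 41 to 55 leaving out replicates. Same-numbered libraries of the 2 groups of a comparison did not deviate together (correlations of -0.48 to 0.31 in testes). This does not cover days within a group. WT testis replicate 1 of days 3, 5, 7 and 9 deviated alike in long genes, as given above, so these libraries may not be independent. With a replicate block the counts were 9 and 13 in testes, 0 between ovaries, 5 and 0 between ages and 46 in both tissue comparisons. Of 328 values for single genes under the alternatives, 62 lost their call and 0 reversed. At levels under 1 TPM, depth limits what can be told.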
